A study of Arabidopsis thaliana with 3 samples.

Results

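Transcript levels in the leaf of Arabidopsis thaliana were set against those in the silique, the fruit of this plant, so that a vegetative and a fruiting green organ were compared. Of 33857 loci listed in both organs, the 17451 (51.5%) with at least 5 FPKM in leaf or in silique are described. FPKM are fragment numbers divided by transcript length and by library size, so they give a level per length. Loci were matched between the organs by their identifier, and the ratio is (leaf FPKM + 1)/(silique FPKM + 1), given on the log2 scale, so that a positive value is higher in leaf and the ratio of low loci is understated. Both organs, and the inflorescence that was also sequenced, came from wild-type Col-0 plants aged 5.5 weeks. They had spent 2 weeks on plates and were then kept on soil with 16 hours of light a day. All plants had been shot at 3 weeks of age with bare gold particles of 0.6 um, a mock transformation without a plasmid, 18 days before harvest, so leaf and silique shared this treatment and no plant without it was analysed here. Each organ gave 1 library. No difference below has a replicate check, and no error or p-value was computed. How many plants or organs were pooled, the age of the leaves and the stage of the siliques were not given in the sources used here.

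A mature leaf fixes carbon, loads sugar into the phloem and, in the cabbage family, makes glucosinolates, sulphur-rich compounds that deter herbivores. A silique develops from the ovary of the flower. Its green valves also photosynthesise, while the seeds inside import sugar and amino acids and build an embryo, an endosperm that feeds it and a pigmented coat, storing protein and oil for the seedling. As a check of the labels, the 24 named genes of the seed storage list, whatever their level, summed to 345 FPKM in leaf and 55790 FPKM in silique. Genes of photosynthesis were abundant in both organs.

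A locus was counted as different when the ratio was at least 4-fold and the higher organ had at least 5 FPKM. By this rule leaf had the higher value at 1037 loci (5.94% of those described) and silique at 2121 (12.2%), 3158 (18.1%) in either. They are called leaf-high and silique-high below. Each count of a list or family below is to be read beside these shares. A locus near 0 in one organ is described only where the other organ reaches 5 FPKM, so a count over the described members of a list is a description and supports nothing. Among the 12778 described loci that could be given a gene name by position, 701 (5.49%) were higher in leaf and 1682 (13.2%) in silique. The median log2 ratio over all described loci was -0.0024, with quartiles of -0.78 and 0.70, and 10618 loci (60.8%) lay within 2-fold. The silique side had the longer tail. At least 16-fold differences were found at 141 loci on the leaf side and 750 on the silique side, and at least 64-fold differences at 29 and 230. Across the described loci the log2(FPKM + 1) values of leaf and silique gave Pearson's r as 0.54 and Spearman's rho as 0.60, a description over loci that share 2 libraries.

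The leaf-high and silique-high loci differed in what the other organ held. The 1037 leaf-high loci had a median of 43.6 FPKM in leaf and 4.26 FPKM in silique, and 480 of them (46.3%) still had at least 5 FPKM in silique. The 2121 silique-high loci had a median of 0.483 FPKM in leaf and 24.1 FPKM in silique, and 339 of them (16.0%) had at least 5 FPKM in leaf. Loci listed at 0 in the lower organ made up 55 (5.30%) of the leaf-high and 486 (22.9%) of the silique-high loci. Whether a listed 0 is a failed estimate was not tested. The ribosomal protein L3 gene RP1 was listed at 0 in leaf, and was at 474 FPKM in silique and 586 FPKM in the inflorescence. Without loci listed at 0 in either organ, there were 982 leaf-high and 1635 silique-high loci.

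The groups took different shares of each library, which follows from the ratio that defined them. Leaf-high loci held 26.2% of the summed FPKM in leaf and 4.42% in silique, and silique-high loci held 0.808% in leaf and 25.7% in silique. Unnamed identifiers at shared positions, at 100608, 27503 and 21690 FPKM in leaf, weighed heavily in the leaf-high shares. In silique they were at 17080, 5892 and 1310 FPKM. Among silique-high loci the highest were AT2G01021 and SESA3, at 25172 and 22796 FPKM in silique. AT2G01021 is only 102 bp wide, and narrow loci can take large values from few fragments. In the inflorescence, 542 (52.3%) of the leaf-high and 1115 (52.6%) of the silique-high loci had at least 5 FPKM, against 14877 (85.3%) of all described loci. The inflorescence exceeded the higher of leaf and silique at 14 (1.35%) of the leaf-high loci and at 384 (18.1%) of the silique-high loci. Both groups were chosen for a high value in leaf or in silique, which limits these shares. The same share over all described loci was not computed.

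**Figure D1:**
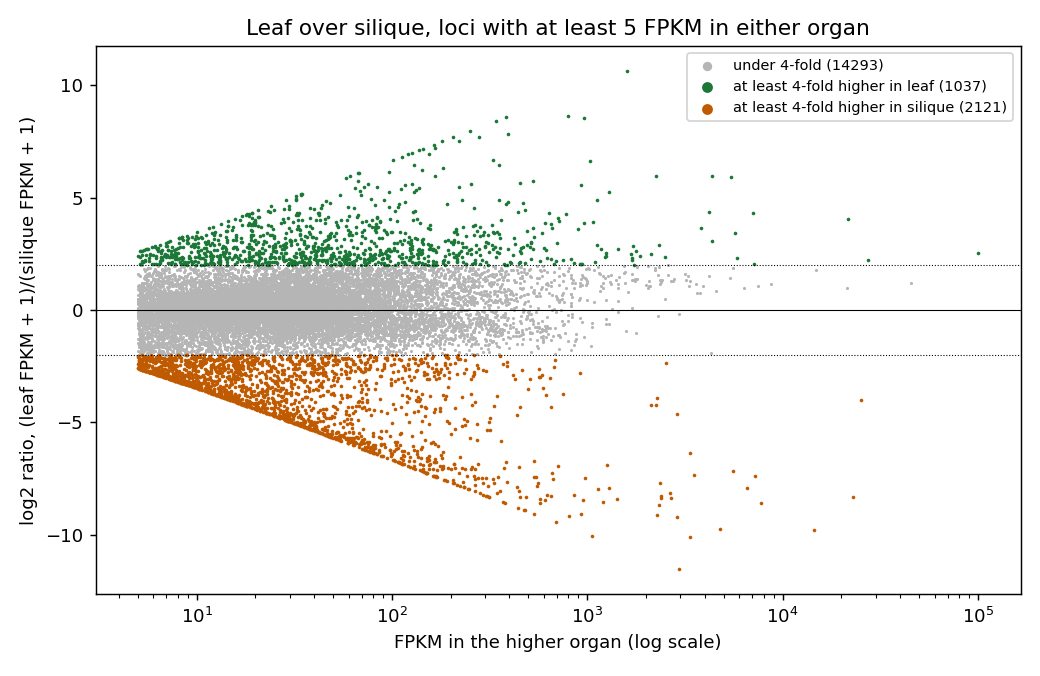
The ratio of leaf to silique, log2((leaf FPKM + 1)/(silique FPKM + 1)), of each of the 17451 described loci is plotted against its FPKM in the higher organ on a log scale. Green points are the 1037 leaf-high loci, orange points the 2121 silique-high ones, and the dotted lines mark 4-fold. The orange points line the lower edge, which is set by loci near or at 0 in leaf.

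The balance of the sides changed with the level. Among 2989 loci with 5 to 10 FPKM in the higher organ, 4.25% were leaf-high and 15.8% silique-high. Among 9508 loci of 10 to 50 FPKM these shares were 4.54% and 10.8%, and among 4577 loci of 50 to 500 FPKM they were 8.91% and 12.3%. At 500 FPKM or more, 18.6% of 377 loci were leaf-high and 17.0% silique-high, only 26.8% lay within 2-fold, and the median log2 ratio was 0.90. Of these level classes the highest had the largest share called, and in it leaf-high and silique-high loci were about equal in number. The level is the higher of the values in the ratio, and adding 1 lowers ratios most at low level. Level and call are therefore not independent. At the lower limit of description, AT3G08947 (chr3:2723289-2726942) was at 2.76 FPKM in leaf and 5.004 FPKM in silique and was taken in, and LpxA, at 4.99 FPKM in leaf and 3.50 FPKM in silique, was left out.

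The 12 largest ratios on the leaf side belonged to genes of several kinds. AOC2 (chr3:9406873-9407955), one of the allene oxide cyclase genes of jasmonate synthesis, was at 799.7 FPKM in leaf, against 0.995 FPKM in silique, a log2 ratio of 8.65. ACD6 (chr4:8294446-8298602), a membrane protein with ankyrin repeats that acts in salicylate-dependent defence, was at 391 FPKM in leaf and 0.724 FPKM in silique. The defensin gene PDF1.2 (chr5:17907069-17907598), a standard marker of jasmonate and ethylene responses, was at 279.6 FPKM in leaf and 0.345 FPKM in silique. These 3 genes were under 1 FPKM in silique and under 4 FPKM in the inflorescence.

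CRK4 (chr3:16863149-16866145), a cysteine-rich receptor-like kinase gene, was at 167 FPKM in leaf and 0.142 FPKM in silique, and TLL1 (chr1:17123821-17128651), named for a resemblance to triacylglycerol lipases, was at 155 FPKM in leaf and 0.280 FPKM in silique. AT1G64360 (chr1:23887870-23888533) was at 957 FPKM in leaf and 1.54 FPKM in silique, and AT1G66100 (chr1:24605671-24606537) was at 220.2 FPKM in leaf and 0.209 FPKM in silique. The rest of the 12 largest leaf ratios were at loci listed at 0 in silique, where no fold is given. They were AT1G74929 at 1595 FPKM in leaf, the small nucleolar RNA gene SNOR105 at 341, the chloroplast photosystem gene psbI at 164, AT2G01023 at 127 and the pseudogene AT3G42090 at 122. Of these 5, all but AT3G42090 were under 200 bp wide (102, 107, 111 and 120 bp). Narrow loci can take large values from few fragments, and the number of fragments here is not known.

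On the silique side the largest ratios belonged mostly to loci without a gene symbol. AT1G56100 (chr1:20980369-20984058) was at 2.04 FPKM in leaf, against 3341 FPKM in silique, a log2 ratio of -10.10. GILT (chr4:7583272-7584630), named for a lysosomal thiol reductase family first known from animals, was at 15.6 FPKM in leaf and 14448 FPKM in silique. The neighbours AT5G38160 and AT5G38170 (chr5:15227638-15228081) stood at 4.64 and 3.85 FPKM in leaf, but at 4782 and 2892 FPKM in silique. These 4 were thus among the most abundant transcripts of the fruit and were under 16 FPKM in leaf.

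AT5G51105 was at 0.428 FPKM in leaf and 810.2 FPKM in silique, AT4G15750 was at 3.08 FPKM in leaf and 2282 FPKM in silique, AT1G62333 was at 0.741 FPKM in leaf and 934 FPKM in silique and AT1G62060 was at 4.73 FPKM in leaf and 2326 FPKM in silique. LCR38 (chr4:10794165-10794758), of a family of cysteine-rich peptides, AT2G21465, AT1G54445 and RP1 were listed at 0 in leaf, and at 692, 533, 444 and 474 FPKM in silique. The inflorescence split these genes. It held 2.32 FPKM of AT1G62060, 2.74 FPKM of AT5G38160 and 1.45 FPKM of AT5G38170, close to the leaf level, and 849 FPKM of GILT, 174 FPKM of AT4G15750 and 109 FPKM of AT1G56100, between leaf and silique.

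**Figure D2:**
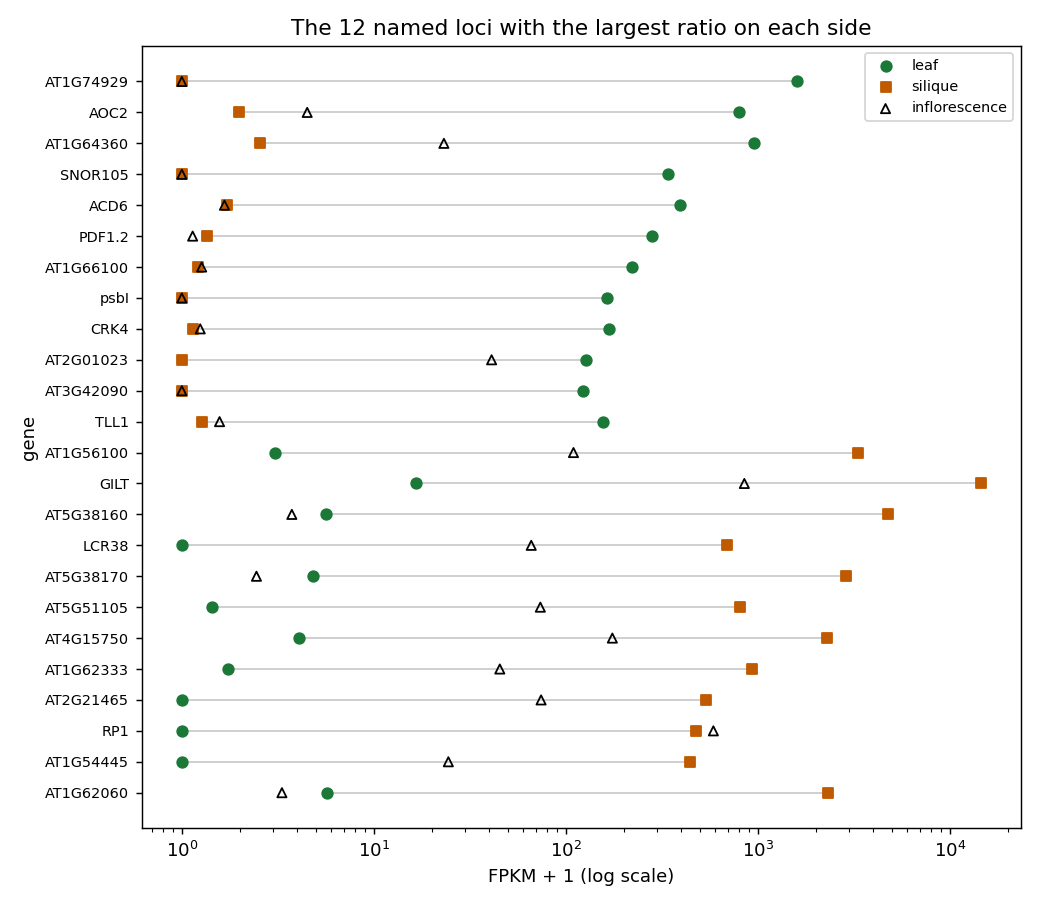
FPKM + 1 on a log scale for the 12 named loci with the largest ratio on each side, among those of 20 FPKM or more; circles are leaf, squares silique and triangles the inflorescence, and a grey line joins leaf and silique. AOC2 stands at 799.7 FPKM in leaf and 0.995 FPKM in silique, and GILT at 15.6 FPKM in leaf and 14448 FPKM in silique.

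The most abundant named transcripts of leaf were mainly those of photosynthesis. RBCS1A and RBCS3B, small subunit genes of the carbon-fixing enzyme Rubisco, stood at 21488 and 8756 FPKM in leaf, but at 10868 and 3884 FPKM in silique. RCA (chr2:16570746-16573548), which encodes Rubisco activase, was at 7156 FPKM in leaf and 1713 FPKM in silique, CAB1 (chr1:10478005-10479048), a chlorophyll-binding antenna protein gene, was at 6314 FPKM in leaf and 3172 FPKM in silique, and ECS1 (chr1:11311169-11311989) was at 7025 FPKM in leaf and 356 FPKM in silique. In silique the highest named loci were AT2G01021, which is only 102 bp wide, SESA3, GILT, RBCS1A and LTP6. LTP6 (chr3:2664130-2664834), a lipid transfer protein gene, was at 19.2 FPKM in leaf and 7745 FPKM in silique, and the inflorescence had 3001 FPKM. RBCS1A was thus in the top 5 of both organs. The loci with the highest values of all in leaf, up to 100608 FPKM, shared their position with a second identifier and could not be named.

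**Figure D3:**
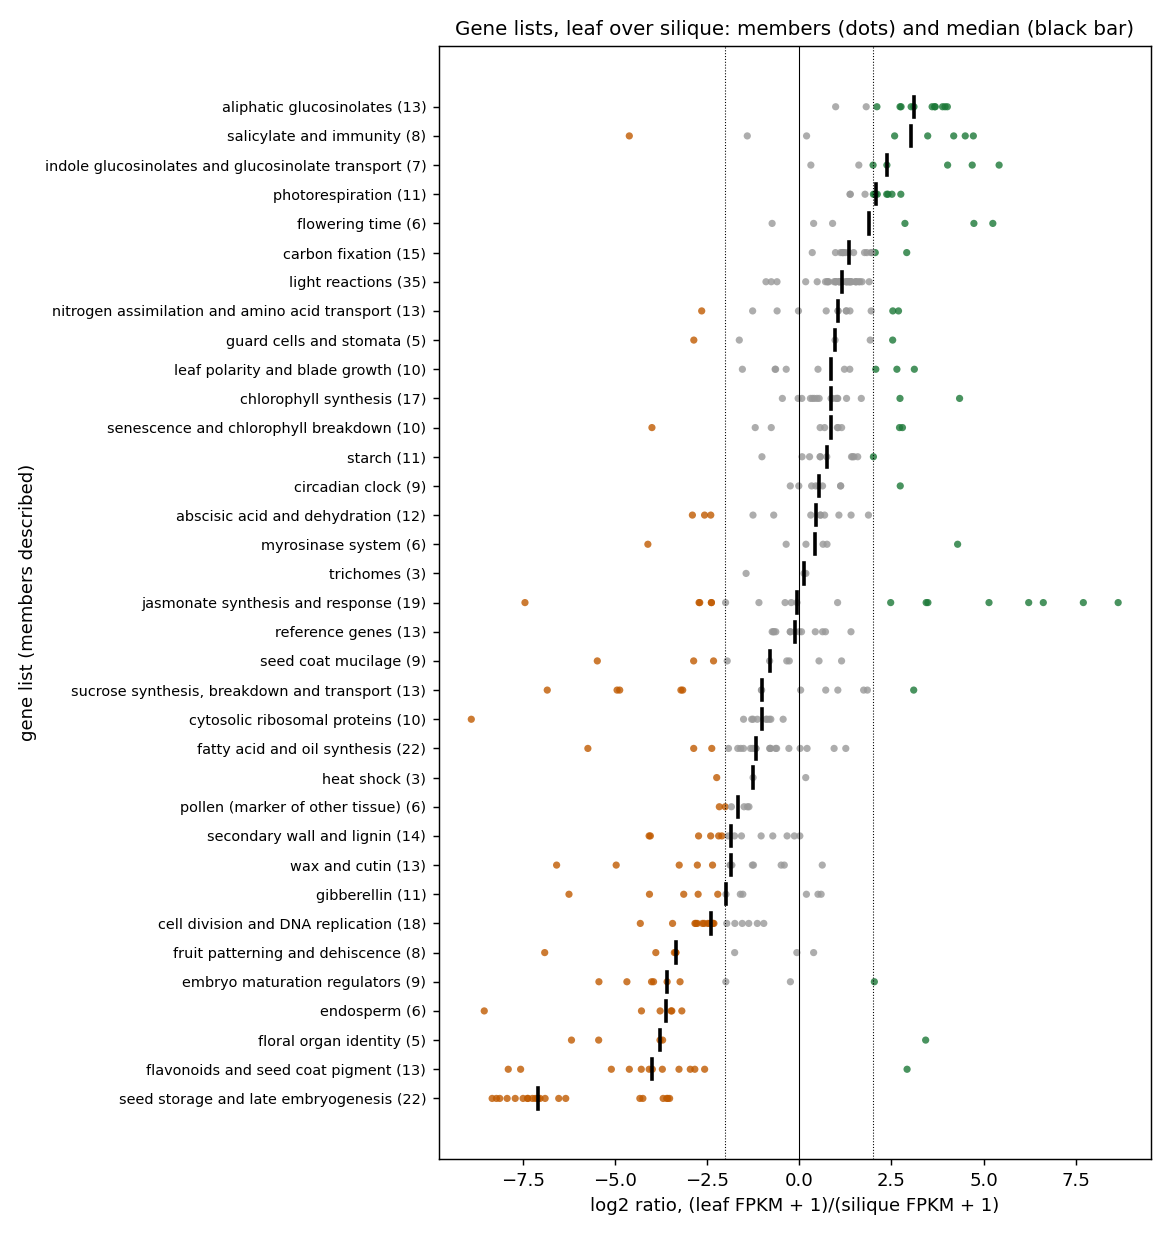
Log2 ratios of leaf to silique for the described members of 35 gene lists; each dot is a gene, green where at least 4-fold higher in leaf, orange where silique was at least 4-fold higher and grey otherwise, the black bar is the list's median, and the number of described members stands in brackets. Aliphatic glucosinolates lie at the top with a median of 3.11 and seed storage at the bottom with -7.09.

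Photosynthesis genes were higher in leaf, mostly by less than 4-fold. Of 15 described genes of carbon fixation, 15 had a higher value in leaf, 2 by at least 4-fold, with a median log2 ratio of 1.35 beside -0.0024 over all described loci. With median-ratio scaling, 1 reached 4-fold. The 2 without it were RCA and CP12-2 (chr3:23090944-23091566), a small regulator of the Calvin cycle, which was at 2338 FPKM in leaf and 309 FPKM in silique. Below that limit, GAPB, a subunit of the plastid glyceraldehyde phosphate dehydrogenase, was at 1798 FPKM in leaf and 457 FPKM in silique, and PRK, phosphoribulokinase, was at 2040.4 FPKM in leaf and 529 FPKM in silique. Carbon fixation genes were thus abundant in both organs, with medians of 1559 FPKM in leaf and 548 FPKM in silique.

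None of 35 nuclear genes of the light reactions reached 4-fold in either direction, and their median log2 ratio was 1.17. The furthest towards leaf were FNR2, which passes electrons to NADP, at 1133 FPKM in leaf and 304 FPKM in silique, PSAH2, of photosystem I, at 1561 FPKM in leaf and 479 FPKM in silique, ATPC1, of the chloroplast ATP synthase, at 1541 FPKM in leaf and 492 FPKM in silique, and PSBP-1, of the oxygen-evolving complex, at 3166 FPKM in leaf and 1033 FPKM in silique. Only 3 of them had a lower value in leaf, and all 3 encode the LHCB2 antenna protein of photosystem II. LHCB2.1 was at 141 FPKM in leaf and 264 FPKM in silique, LHCB2.2 was at 114 FPKM in leaf and 194 FPKM in silique and LHCB2.3 was at 47.6 FPKM in leaf and 72.7 FPKM in silique. These 3 are close copies, between which the assignment of fragments is uncertain.

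Photorespiration, the salvage pathway for the oxygenase side reaction of Rubisco, was the part of photosynthetic metabolism that parted the organs most. Of 11 described genes, 8 were leaf-high and 0 silique-high, and the median log2 ratio was 2.07. With median-ratio scaling of the libraries, 5 were leaf-high. GLU1 (chr5:1129852-1138442), the ferredoxin-dependent glutamate synthase that refixes ammonia, was at 599 FPKM in leaf and 87.8 FPKM in silique. AGT (chr2:5539240-5541358), the peroxisomal serine to glyoxylate aminotransferase, was at 1673 FPKM in leaf and 292 FPKM in silique, GLDP1 (chr4:15926670-15931332), a subunit of glycine decarboxylase, was at 1872 FPKM in leaf and 352 FPKM in silique, and the glycolate oxidase gene GOX1 (chr3:4821523-4824178) was at 2489 FPKM in leaf and 479.6 FPKM in silique. The 3 below the limit were GDCH, GLDP2 and AT1G11860, the last at 987 FPKM in leaf and 379.6 FPKM in silique, so all 11 had the same direction.

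Of 17 described genes of chlorophyll synthesis, the 2 that were leaf-high were the transcription factor genes that switch on the others. GLK1 (chr2:8855358-8857756), named GPRI1 in the reference gene table, was at 128 FPKM in leaf and 5.34 FPKM in silique, and GLK2 (chr5:17798369-17800824) was at 77.3 FPKM in leaf and 10.8 FPKM in silique. The enzyme genes were closer: POR C, a light-dependent protochlorophyllide reductase, was at 267 FPKM in leaf and 82.6 FPKM in silique, and G4, the chlorophyll synthase, was at 139.8 FPKM in leaf and 56.8 FPKM in silique. The list's median log2 ratio was 0.86. All 12 described loci with a PTAC symbol, for proteins of the plastid's transcription complex, had a higher value in leaf and none reached 4-fold, with a median log2 ratio of 1.11. This set, like the other sets by symbol below, was chosen after its values were seen.

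Starch genes lay near carbon fixation. Of 11 described, 1 was leaf-high, and the median log2 ratio was 0.75. That gene, SEX1 (chr1:3581034-3590928), encodes the glucan water dikinase that starts starch breakdown at night and was at 163 FPKM in leaf and 39.7 FPKM in silique. PWD, the kinase that acts after it, was at 223 FPKM in leaf and 73.7 FPKM in silique, DPE2, which handles the maltose released, was at 131 FPKM in leaf and 46.1 FPKM in silique, and the maltose exporter gene MEX1 (RCP1 in the table) was at 54.5 FPKM in leaf and 19.4 FPKM in silique. The 1 gene with a lower value in leaf was GBSS1, the starch synthase of amylose, at 10.6 FPKM in leaf and 22.4 FPKM in silique. The other 10 described genes, among them the 4 of starch breakdown named here, had a higher value in leaf. With median-ratio scaling no starch gene was leaf-high.

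Sugar genes stood on both sides. Of 13 described genes of sucrose metabolism and transport, 1 was leaf-high and 5 silique-high, with a median log2 ratio of -1.02. The leaf one was the sucrose phosphate synthase gene ATSPS4F (chr4:6314787-6319936), at 142 FPKM in leaf and 15.6 FPKM in silique. SWEET15 (chr5:4181042-4183306), a sucrose exporter of the seed coat and endosperm listed as SAG29, was at 0.384 FPKM in leaf and 157 FPKM in silique, and the sucrose carrier gene SUC5 (chr1:27058439-27060785) was at 0.287 FPKM in leaf and 38.5 FPKM in silique. The sucrose synthase genes SUS2 and SUS4, which break sucrose down, stood at 1.33 and 0.0971 FPKM in leaf, but at 67.1 and 9.14 FPKM in silique. The phloem-loading exporters SWEET11, at 799 FPKM in leaf and 237 FPKM in silique, and SWEET12, at 475 FPKM in leaf and 131 FPKM in silique, were further towards leaf, without reaching 4-fold. Of 10 described loci with a SWEET symbol, which SAG29 does not carry, 1 was leaf-high and 4 were silique-high. With a pseudocount of 5, which lowers the ratio of loci of low level, 3 genes of the sucrose list were silique-high.

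The amino acid transporters of the UMAMIT family, taken by symbol, also divided between the organs. Of 25 described, 5 were leaf-high and 6 silique-high, against 5.94% and 12.2% of all described loci. On the leaf side UMAMIT17 was at 19.9 FPKM in leaf and 1.40 FPKM in silique and UMAMIT46 was at 86.6 FPKM in leaf and 13.4 FPKM in silique. On the silique side UMAMIT25 was at 0.254 FPKM in leaf and 79.7 FPKM in silique, UMAMIT14 was at 0.153 FPKM in leaf and 44.0 FPKM in silique and UMAMIT29 was at 2.76 FPKM in leaf and 23.5 FPKM in silique. These 3 silique-high members are known for the export of amino acids towards the embryo. UMAMIT11, at 14.1 FPKM in leaf and 6.11 FPKM in silique, and UMAMIT28, at 7.37 FPKM in leaf and 4.08 FPKM in silique, are known for the same role and were further towards leaf, under 4-fold. In nitrogen assimilation, 2 of 13 described genes were leaf-high and 1 silique-high. NIA2 (chr1:14158527-14161938), the main nitrate reductase gene, was at 616 FPKM in leaf and 94.4 FPKM in silique, and the nitrate transporter gene NRT1.1 was at 88.4 FPKM in leaf and 14.4 FPKM in silique. ASN1, an asparagine synthetase gene, was at 9.09 FPKM in leaf and 62.1 FPKM in silique, and GS2, the plastid glutamine synthetase, was at 1537 FPKM in leaf and 397 FPKM in silique, under 4-fold.

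Glucosinolate synthesis had the highest median log2 ratio of the 35 lists with described members. Of 13 described genes of aliphatic glucosinolates, 11 were leaf-high and 0 silique-high, with a median log2 ratio of 3.11. MAM1 (chr5:7703092-7706896), which lengthens the methionine side chain, was at 721 FPKM in leaf and 45.6 FPKM in silique, and CYP79F1 (chr1:5608807-5611426), which starts the core structure, was at 607 FPKM in leaf and 40.1 FPKM in silique. The glutathione transferase gene GSTF11 (chr3:735028-735987) was at 59.1 FPKM in leaf and 2.72 FPKM in silique, and the side-chain oxygenase gene FMO GS-OX1 (chr1:24499066-24502745) was at 82.5 FPKM in leaf and 5.47 FPKM in silique. The regulator gene MYB28 was at 195 FPKM in leaf and 21.6 FPKM in silique. All 13 described genes, of 19 in the list, had the higher value in leaf.

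The indole branch, made from tryptophan, was similar: 5 of 7 described genes were leaf-high, 3 with a pseudocount of 5, and 0 silique-high, with a median log2 ratio of 2.38. CYP79B3 (chr2:9488554-9491187) and CYP79B2 (chr4:18525246-18527579), which convert tryptophan to its oxime, stood at 138 and 82.0 FPKM in leaf, but at 2.25 and 2.21 FPKM in silique. CYP83B1, the next enzyme, was at 360.4 FPKM in leaf and 21.2 FPKM in silique, and its regulator gene MYB34 was at 9.80 FPKM in leaf and 1.08 FPKM in silique. The enzymes that break glucosinolates down did not share this: the myrosinase genes TGG1 and TGG2 stood at 639.7 and 720.2 FPKM in leaf, but at 563 and 921 FPKM in silique. In that list ESM1, which shifts the products of hydrolysis, was at 635 FPKM in leaf and 31.4 FPKM in silique, and the myrosinase-binding protein gene MBP2 was at 3.38 FPKM in leaf and 74.3 FPKM in silique. It had 1 of 6 described members on the leaf side and 1 on the silique side, and NSP1, a nitrile specifier, was at 21.3 FPKM in leaf and 12.2 FPKM in silique.

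Jasmonate genes stood at both ends. Of 19 described genes, 8 were leaf-high and 5 silique-high, and the median log2 ratio, at -0.061, was near that of all loci. The 4 furthest from 1 were AOC2, PDF1.2, the thionin gene THI2.1 (chr1:27198433-27199444), at 2.15 FPKM in leaf and 544 FPKM in silique, and CORI3 (chr4:12310619-12313212), a coronatine-induced aminotransferase gene, at 1029 FPKM in leaf and 9.48 FPKM in silique. Genes for the same enzyme took opposite sides. Among lipoxygenases, LOX2 was at 2118 FPKM in leaf and 379 FPKM in silique and LOX4 at 9.11 FPKM in leaf and 64.6 FPKM in silique. Among allene oxide cyclases, AOC1, a tandem neighbour of AOC2, was at 143 FPKM in leaf and 0.922 FPKM in silique, and AOC3 was at 13.2 FPKM in leaf and 72.9 FPKM in silique. Near-identical copies in this family can exchange fragments, so the values of AOC1 and AOC2 are uncertain. JMT, the jasmonate methyltransferase, was at 6.68 FPKM in leaf and 49.5 FPKM in silique, and the repressor gene JAZ10 was at 9.16 FPKM in leaf and 51.9 FPKM in silique.

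Of 13 named salicylate and immunity genes, 8 were described and the rest reached 5 FPKM in neither organ. Of the 8, 5 were leaf-high and 1 silique-high, against 5.94% and 12.2% of all described loci. The median log2 ratio of the 8 was 3.04. BGL2 (chr3:21188517-21189859), a pathogenesis-related glucanase gene also called PR2, was at 109 FPKM in leaf and 3.16 FPKM in silique. PR1 (chr2:6241704-6242463), the usual salicylate marker, was at 29.8 FPKM in leaf and 0.359 FPKM in silique, and PAD4 (chr3:19431371-19434403), a lipase-like immune regulator, was at 60.6 FPKM in leaf and 2.38 FPKM in silique. ALD1 (chr2:5768446-5772259), which makes the precursor of the immune signal pipecolic acid, was lower in leaf, at 0.228 FPKM in leaf and 28.9 FPKM in silique.

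In 3 families that include receptors and regulators of immunity, more members were leaf-high than silique-high. They were taken by symbol after their values were seen. Over all described loci, 5.94% were leaf-high and 12.2% silique-high. Of 12 described loci with the symbol CRK, which 2 kinase families share, 6 were leaf-high and 0 silique-high, and CRK6 was at 19.3 FPKM in leaf and 0.424 FPKM in silique. Of 15 receptor-like proteins (RLP), 6 were leaf-high and 1 silique-high, with RLP19 at 75.5 FPKM in leaf and 0.564 FPKM in silique and RLP55 at 0.852 FPKM in leaf and 34.7 FPKM in silique. Of 29 WRKY transcription factors, 7 were leaf-high and 0 silique-high, among them WRKY70 at 346 FPKM in leaf and 56.7 FPKM in silique and WRKY54 at 45.0 FPKM in leaf and 4.42 FPKM in silique. The WRKY median log2 ratio was 0.60, and others leaned towards silique without reaching 4-fold, such as WRKY46, at 9.28 FPKM in leaf and 37.9 FPKM in silique, and WRKY18, at 65.3 FPKM in leaf and 176 FPKM in silique.

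Among developmental regulators, 3 of 6 described flowering time genes were leaf-high. The repressor gene SVP (chr2:9579874-9583893) was at 129.7 FPKM in leaf and 2.43 FPKM in silique, the integrator gene SOC1 (AGL20 in the table) (chr2:18807538-18811047) was at 191 FPKM in leaf and 6.19 FPKM in silique, and FD (chr4:17004595-17006287), the partner of the flowering signal, was at 9.40 FPKM in leaf and 0.426 FPKM in silique. FT, which encodes that mobile signal, was at 123 FPKM in leaf and 206 FPKM in silique, under 4-fold. Of 10 described genes of leaf polarity and blade growth, 3 were leaf-high, TCP10 at 51.8 FPKM in leaf and 5.06 FPKM in silique, YAB5 at 40.7 FPKM in leaf and 5.64 FPKM in silique and TCP4 at 32.6 FPKM in leaf and 6.97 FPKM in silique, and AS2 was at 1.34 FPKM in leaf and 5.82 FPKM in silique. Of 12 described loci with a TCP symbol, 5 were leaf-high and 0 silique-high, against 5.94% and 12.2% of all described loci. The chaperonin subunit gene TCP-1, which shares the symbol, is 1 of the 12.

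The smaller leaf lists had few members past 4-fold. Of 9 described clock genes, 1 was leaf-high, ELF4, at 123 FPKM in leaf and 17.62 FPKM in silique, followed by TOC1, at 135 FPKM in leaf and 61.5 FPKM in silique, PRR5, at 17.42 FPKM in leaf and 7.46 FPKM in silique, and ZTL, at 27.9 FPKM in leaf and 17.61 FPKM in silique. The hour of harvest is not given in the sources used here. Of 5 described stomatal genes, 1 was leaf-high and 1 silique-high, at log2 ratios of 2.53 and -2.86, and these are not named here. The potassium channel gene KAT1, at 18.5 FPKM in leaf and 4.14 FPKM in silique, did not reach 4-fold. Nor did the guard cell regulator gene MYB60, at 9.04 FPKM in leaf and 29.95 FPKM in silique. The 3 described trichome genes, CPC, at 1.53 FPKM in leaf and 5.86 FPKM in silique, TRY, at 7.65 FPKM in leaf and 6.63 FPKM in silique, and TTG1, at 53.2 FPKM in leaf and 48.5 FPKM in silique, did not reach 4-fold. Of 10 described genes of senescence and chlorophyll breakdown, NAP, at 63.5 FPKM in leaf and 8.26 FPKM in silique, and NAC6, at 44.8 FPKM in leaf and 5.94 FPKM in silique, were leaf-high, and the protease gene SAG12, at 0.406 FPKM in leaf and 21.4 FPKM in silique, was silique-high, while SAG13 was at 11.9 FPKM in leaf and 28.6 FPKM in silique.

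On the silique side, the seed storage list had the lowest median log2 ratio of the lists. Of 24 named genes of seed storage and late embryogenesis, 22 were described and all 22 were silique-high, with medians of 1.69 FPKM in leaf and 497 FPKM in silique and a median log2 ratio of -7.09. SESA3 (chr4:13611796-13612563), a 2S albumin gene, was at 70.0 FPKM in leaf and 22796 FPKM in silique. The oleosin genes OLEO2 (chr5:16173393-16174783) and OLEO3 (chr5:20820101-20820944), whose products coat oil bodies, stood at 1.89 and 0.599 FPKM in leaf, but at 855 and 332 FPKM in silique. The globulin genes CRA1 (chr5:17756264-17758288) and CRU2 (chr1:985751-988146) stood at 26.1 and 8.51 FPKM in leaf, but at 6563 and 2644 FPKM in silique. Albumins, globulins and oleosins were thus present together, and these 5 genes ran from 332 to 22796 FPKM in silique.

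Low values of these seed genes were also listed in leaf. Expressed as a share of the silique value, the leaf value was 0.583% for SESA1, 0.398% for CRA1 and 0.221% for OLEO2. It was between 0.180% and 0.820% for 19 of the 22 genes, and 5.25% for CRU3, 5.42% for EM1 and 5.05% for LEA4-5. In the inflorescence the share was 0.252% for SESA1, 0.135% for CRA1 and 0.0833% for OLEO2. It was above the leaf share for LEA4-5, at 23.1%, OLEO3, at 1.14%, PAP85, at 1.07%, and OLEO4, at 0.600%. SESA1 to SESA4 are tandem copies, between which the assignment of fragments is uncertain. In whole organs, fewer cells of a type and less RNA per cell cannot be told apart.

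Regulators of the embryo and endosperm followed at lower levels. Of 9 described embryo maturation regulators, 1 was leaf-high and 6 were silique-high, with a median log2 ratio of -3.58. LEC1 (chr1:7727577-7729617), of embryo identity, was listed at 0 in leaf and at 42.1 FPKM in silique, AGL15 was at 0.126 FPKM in leaf and 27.7 FPKM in silique, ABI3 (chr3:8997370-9001190), the maturation regulator of storage genes, was at 0.0300 FPKM in leaf and 15.5 FPKM in silique, and DOG1, of seed dormancy, was at 0.170 FPKM in leaf and 17.1 FPKM in silique. WOX2, known from the earliest divisions of the embryo, was the leaf-high one, at 8.57 FPKM in leaf and 1.33 FPKM in silique. Of 11 endosperm genes in the list, 6 were described and all 6 were silique-high, with 2 silique-high under a pseudocount of 5. EPR1 (chr2:11713411-11715696), an extensin-like protein gene, was at 2.22 FPKM in leaf and 1199 FPKM in silique, the regulator gene MYB118 was listed at 0 in leaf and at 18.4 FPKM in silique, RGE1, also called ZHOUPI, was at 0.0952 FPKM in leaf and 14.0 FPKM in silique, and the subtilisin gene ALE1 was at 0.0164 FPKM in leaf and 10.3 FPKM in silique.

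Most genes of oil synthesis lay closer to a ratio of 1 than the seed storage genes. Of 22 described genes of fatty acid and oil synthesis, 0 were leaf-high and 3 silique-high, with a median log2 ratio of -1.17. FAE1 (KCS18 in the table) (chr4:16494205-16495842), which makes the long fatty acids of seed oil, was at 0.116 FPKM in leaf and 58.3 FPKM in silique, the thioesterase gene FaTA was at 4.01 FPKM in leaf and 35.4 FPKM in silique, and the enoyl reductase gene MOD1 was at 35.3 FPKM in leaf and 187 FPKM in silique. Next was the desaturase gene AT5G16240, at 6.10 FPKM in leaf and 25.8 FPKM in silique. The plastid desaturase gene FAD7, which serves leaf membranes, was at 319.9 FPKM in leaf and 133 FPKM in silique, and DGAT1 (TAG1 in the table), of the last step of oil synthesis, was at 19.1 FPKM in leaf and 34.04 FPKM in silique.

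Flavonoid and seed coat pigment genes were nearly all silique-high. Of 13 described, 1 was leaf-high and 12 were silique-high, with a median log2 ratio of -3.98. BAN (chr1:22791168-22792800), the anthocyanidin reductase of the proanthocyanidin branch, was at 0.852 FPKM in leaf and 438 FPKM in silique, TT10 (chr5:19489327-19492744), the laccase that browns the coat, was at 0.0999 FPKM in leaf and 206 FPKM in silique, and TT7, flavonoid hydroxylase, was at 5.93 FPKM in leaf and 236 FPKM in silique. The flavonol synthase gene FLS1 was at 0.880 FPKM in leaf and 44.8 FPKM in silique. The leaf-high exception was PAP1, a regulator of anthocyanins in vegetative tissue, at 25.3 FPKM in leaf and 2.46 FPKM in silique, whereas the seed coat regulator gene TT2 was at 0.0961 FPKM in leaf and 20.3 FPKM in silique. Mucilage genes of the seed coat were less one-sided, with 3 of 9 described silique-high. These were the peroxidase gene AT3G50990, at 0.0722 FPKM in leaf and 46.7 FPKM in silique, GATL5, at 5.24 FPKM in leaf and 44.4 FPKM in silique, and the subtilisin gene ARA12, at 76.6 FPKM in leaf and 387 FPKM in silique, and the next, AT2G47670, was at 3.79 FPKM in leaf and 17.5 FPKM in silique.

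The fruit wall gave a further group. Of 8 described genes of fruit patterning and opening, 5 were silique-high, with a median log2 ratio of -3.35, and 2 were silique-high with a pseudocount of 5. STK (chr4:6236375-6240932), of ovule identity, was at 0.214 FPKM in leaf and 144 FPKM in silique, and ADPG1 (chr3:21283338-21285941), a polygalacturonase that separates cells at dehiscence, was at 0.155 FPKM in leaf and 16.1 FPKM in silique. NST3 (NAC012 in the table) and NST1, switches of secondary walls, stood at 0.228 and 0.0932 FPKM in leaf, but at 11.8 and 10.2 FPKM in silique, and IND, of the valve margin, was at 0.0994 FPKM in leaf and 10.15 FPKM in silique. FUL (AGL8 in the table), which patterns the valves, was at 58.3 FPKM in leaf and 44.2 FPKM in silique, and RPL was at 15.7 FPKM in leaf and 16.5 FPKM in silique, so 2 regulators of fruit shape did not differ by 4-fold.

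Secondary wall genes had the same direction: 6 of 14 described were silique-high, with a median log2 ratio of -1.84. IRX9 (chr2:15587394-15589257) and GUT2, of xylan synthesis, stood at 1.06 and 7.83 FPKM in leaf, but at 33.6 and 57.6 FPKM in silique. IRX12 (chr2:15934460-15937616), a laccase of lignin also called LAC4, was at 7.27 FPKM in leaf and 135 FPKM in silique, and the lignin regulator gene MYB63 was at 0.482 FPKM in leaf and 6.83 FPKM in silique. Of 13 described genes of wax and cutin, 5 were silique-high, 3 with a pseudocount of 5, with a median log2 ratio of -1.86. CYP96A15 (chr1:21383916-21385709), which makes the alcohols and ketones of stem wax, was at 0.596 FPKM in leaf and 152 FPKM in silique, and PEL3 (chr5:8076329-8079793), an acyltransferase of cutin also called DCR, was at 2.97 FPKM in leaf and 123 FPKM in silique. CYP86A4 and CYP77A6, of cutin monomers, stood at 0.306 and 1.29 FPKM in leaf, but at 11.5 and 14.6 FPKM in silique.

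Families of wall and surface proteins, taken by symbol after their values were seen, differed in their share of silique-high members. Over all described loci, 5.94% were leaf-high and 12.2% silique-high. Of 24 described arabinogalactan proteins (AGP), 0 were leaf-high and 14 silique-high, with AGP9 at 119.6 FPKM in leaf and 2261 FPKM in silique. Of 12 fasciclin-like ones (FLA), 0 were leaf-high and 7 silique-high, with FLA10 at 0.593 FPKM in leaf and 265 FPKM in silique. Of 13 early nodulin-like proteins (ENODL), 0 were leaf-high and 9 silique-high, with ENODL3 at 0.526 FPKM in leaf and 487 FPKM in silique. Of 16 xyloglucan-modifying enzymes (XTH), 1 was leaf-high, XTH31, at 8.08 FPKM in leaf and 0.333 FPKM in silique, and 10 were silique-high, among them XTH24, at 132 FPKM in leaf and 920.2 FPKM in silique. Expansins (EXPA), which loosen walls, had 0 leaf-high and 3 silique-high of 12 described loci, and the TBL family, which acetylates wall polysaccharides, had 0 leaf-high and 4 silique-high of 20. Their median log2 ratios were -0.40 and -0.17, near that of all loci.

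Growth-related lists had the same direction. Of 18 described genes for dividing cells and DNA synthesis, 0 were leaf-high and 12 silique-high, with medians of 2.02 FPKM in leaf and 13.7 FPKM in silique. With a pseudocount of 5, 3 were silique-high. KNOLLE (SYP111 in the table) (chr1:2709632-2710912), of the cell plate, was at 2.67 FPKM in leaf and 71.7 FPKM in silique, the mitotic kinase gene CDKB1;1 was at 0.978 FPKM in leaf and 20.4 FPKM in silique, the replication clamp gene PCNA1 was at 3.08 FPKM in leaf and 28.0 FPKM in silique, and the cyclin gene CYC1BAT was at 1.48 FPKM in leaf and 16.3 FPKM in silique. The median log2 ratio of cytosolic ribosomal protein genes was -1.02, and of 10 described only RP1, listed at 0 in leaf, passed 4-fold. The next were RPS6, at 109.7 FPKM in leaf and 314 FPKM in silique, PFL, at 84.1 FPKM in leaf and 207 FPKM in silique, and AT3G09630, at 112 FPKM in leaf and 267 FPKM in silique.

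Among hormone genes, 0 of 11 described gibberellin genes were leaf-high and 5 silique-high, 3 with a pseudocount of 5. GA20OX3 (chr5:2243553-2245339) and GA20OX2 (chr5:21055188-21056808), of the late steps of synthesis, stood at 0.143 and 0.374 FPKM in leaf, but at 85.6 and 21.9 FPKM in silique, GA2OX2, of breakdown, was at 4.80 FPKM in leaf and 49.8 FPKM in silique, and the repressor gene RGL2, known from seeds, was at 0.914 FPKM in leaf and 11.8 FPKM in silique. Of 12 described genes of abscisic acid and dehydration, 3 were silique-high. These were NCED6, at 0.0464 FPKM in leaf and 6.79 FPKM in silique, and NCED9, at 0.0219 FPKM in leaf and 5.05 FPKM in silique, of abscisic acid synthesis in seeds, and LTI65, at 0.144 FPKM in leaf and 5.03 FPKM in silique, each close to the 5 FPKM limit. None of the 3 reached 4-fold with a pseudocount of 5. The cold-response gene COR15A, at 146 FPKM in leaf and 39.1 FPKM in silique, was further towards leaf, under 4-fold. Of the 3 described heat shock genes, HSP17.6II, at 0.282 FPKM in leaf and 5.05 FPKM in silique, was silique-high, with HSP70 at 11.1 FPKM in leaf and 27.8 FPKM in silique and HSP90.1 at 15.8 FPKM in leaf and 13.9 FPKM in silique.

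Of 12 named floral organ identity genes, 5 were described and the rest reached 5 FPKM in neither organ. Of the 5, 1 was leaf-high and 4 were silique-high, against 5.94% and 12.2% of all described loci. SEP2 was at 0.974 FPKM in leaf and 142 FPKM in silique, AP3, of petals and stamens, was at 0.482 FPKM in leaf and 63.3 FPKM in silique, SEP3 was at 7.27 FPKM in leaf and 112 FPKM in silique, and AG, of carpels and stamens, was at 1.26 FPKM in leaf and 28.4 FPKM in silique. SEP4 was the leaf-high one, at 65.4 FPKM in leaf and 5.16 FPKM in silique. Markers of pollen, 6 of 14 of them described, were also further towards silique. Among them BCP1 was at 7.90 FPKM in leaf and 39.0 FPKM in silique, AGP11 at 8.91 FPKM in leaf and 38.8 FPKM in silique, AGP6 at 11.998 FPKM in leaf and 45.5 FPKM in silique and sks11 at 2.63 FPKM in leaf and 9.23 FPKM in silique. Their summed level was 57.2 FPKM in leaf, 2729 FPKM in the inflorescence and 204 FPKM in silique, and their part in the silique values was not tested. The 16 named tapetum markers summed to 2.003 FPKM in leaf, 1897 FPKM in the inflorescence and 5.38 FPKM in silique, and the 6 root markers to 0.945, 16.6 and 1.09 FPKM; none was described.

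Among families by symbol with at least 10 described loci, the cysteine-rich peptides of the LCR family had the largest silique-high share of described members. They are small secreted proteins related to defensins, some of which act in pollen tube guidance and other steps of reproduction. Of 78 loci with this symbol, 45 were described. Of these, 0 were leaf-high and 43 silique-high, against 5.94% and 12.2% of all described loci. The other 33 reached 5 FPKM in neither organ. LCR69 (chr2:528350-529108) was at 151 FPKM in leaf and 2286 FPKM in silique, LCR73 (chr2:546664-547026) was at 3.19 FPKM in leaf and 1412 FPKM in silique, and LCR48 was at 0.683 FPKM in leaf and 447 FPKM in silique. Their silique values ran from 5.41 to 2286 FPKM with a median of 75.1, and the inflorescence median was 8.01 FPKM. In leaf, 36 of the 45 were listed at 0. Such a locus is described only from 5 FPKM in silique and is then silique-high by the rule. The filter thus fixed those calls. Of the 9 listed above 0 in leaf, 7 were silique-high. The exceptions were LCR68, at 398 FPKM in leaf and 318 FPKM in silique, and LCR3, at 1.07 FPKM in leaf and 5.73 FPKM in silique. The described LCR loci were between 318 and 942 bp wide, with a median of 439 bp.

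The loci of equal level were as plain. Among 281 named loci over 500 FPKM in the higher organ, 49 were leaf-high, 53 silique-high and 77 within 2-fold. The closest to a ratio of 1 were AT4G40030, at 660.1 FPKM in leaf and 655 FPKM in silique, the ascorbate peroxidase gene APX1, at 738 FPKM in leaf and 731 FPKM in silique, ERD15, at 1337 FPKM in leaf and 1308 FPKM in silique, the ubiquitin-conjugating enzyme gene UBC10, at 677 FPKM in leaf and 650.2 FPKM in silique, and ELP, at 658 FPKM in leaf and 689.9 FPKM in silique. Of 13 genes often used as references, 0 were leaf-high and 0 silique-high, and the median log2 ratio was -0.11. They ranged from UBQ10, at 1759.9 FPKM in leaf and 664 FPKM in silique, ACT2, at 498 FPKM in leaf and 303 FPKM in silique, GAPC1, at 251 FPKM in leaf and 417 FPKM in silique, and UBQ5, at 374 FPKM in leaf and 608 FPKM in silique, to PP2AA3, at 38.1 FPKM in leaf and 38.2 FPKM in silique. The 99 described loci with an EMB symbol, for mutants with defective embryos, also had 0 leaf-high and 0 silique-high members, and their median log2 ratio was 0.33. All 99 thus lay within 4-fold, in contrast to the embryo maturation regulators.

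Narrow loci differed most often. Of 362 described loci of at least 200 and under 500 bp, 9.94% were leaf-high and 63.8% silique-high, with a median log2 ratio of -3.10. The shares were 9.949% and 32.7% of 1367 loci from 500 to under 1000 bp, 6.79% and 14.0% of 4317 loci from 1000 to under 2000 bp, 4.94% and 7.97% of 7111 loci from 2000 to under 4000 bp, and 4.83% and 5.70% of 4226 wider ones. Of the 68 loci under 200 bp, 17 were leaf-high and 29 silique-high. From 200 bp upwards, the silique-high share was thus lower in each wider class. The width is that of the locus with its introns, and the effect of the length scaling behind FPKM on narrow loci was not tested. Over all widths, 56 named loci had at least 100 FPKM in one organ and were listed at 0 in the other, and 8 of these were under 200 bp. Loci without a protein product were few. The largest ratios among them belonged to SNOR105 and AT3G42090 on the leaf side, and on the silique side to the small nucleolar RNA gene AT1G74453, listed at 0 in leaf and at 188 FPKM in silique, and the pseudogene AT1G12670, at 0.833 FPKM in leaf and 207 FPKM in silique.

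**Figure D4:**
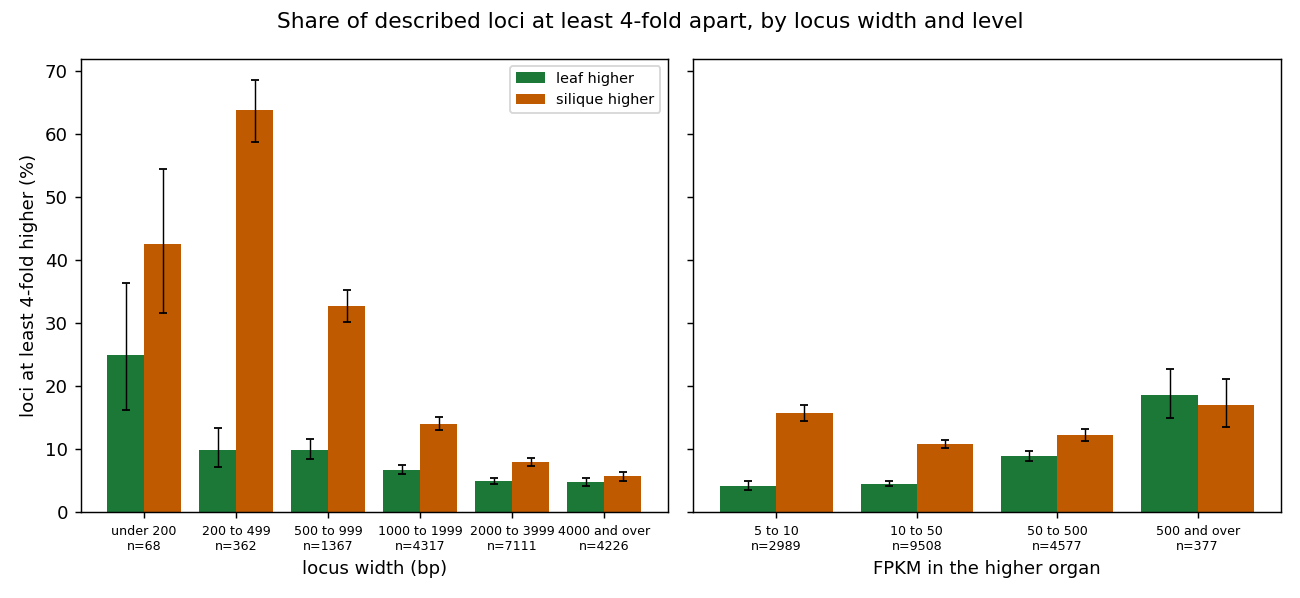
The share of described loci at least 4-fold higher in leaf (green) and in silique (orange) by the width of the locus and by the FPKM of the higher organ, with the number of loci under each pair of bars. Error bars are 95% Wilson intervals over loci and cover counting error only. They treat loci as independent, which tandem neighbours are not. Loci from 200 to under 500 bp reach 63.8% on the silique side, and the leaf side passes the silique side only at 500 FPKM and over, with 18.6% and 17.0%.

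The chromosomes were alike. On chromosomes 1 to 5 the leaf-high share of described loci was 5.75%, 6.39%, 6.20%, 6.25% and 5.38%, and the silique-high share was 12.2%, 12.7%, 11.4%, 12.1% and 12.4%. In windows of 1 Mb with at least 50 loci alone at their position, 101 in number, the leaf-high share ran from 1.36% to 17.1% with a median of 5.26%, and the silique-high share from 4.84% to 24.4% with a median of 13.0%. The highest leaf share, 17.1% of 82 loci, was between 1 and 2 Mb of chromosome 2, and the highest silique share, 24.4% of 82 loci, was between 15 and 16 Mb of chromosome 5. Each is a window picked as the highest of 101. The 20 sparser windows, with 417 loci, had 7.91% leaf-high and 16.5% silique-high loci, against 5.70% and 13.3% in the others.

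Loci of the same side lay next to each other more often than their shares. After a leaf-high locus, the next of these loci was leaf-high in 104 of 783 cases (13.3%), while 5.77% of them all were. After a silique-high locus it was silique-high in 369 of 1816 cases (20.3%), while 13.4% were. Runs of at least 4 neighbours of the same side numbered 3 on the leaf side, with 14 loci, and 23 on the silique side, with 104 loci. The members of a run are often tandem copies, which share sequence and are not independent.

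The longest leaf run held 6 cytochrome P450 loci of the CYP71B subfamily on chromosome 3, from 9570260 to 9599959. Of these, CYP71B18 is annotated as a transcribed pseudogene. CYP71B18 was at 60.4 FPKM in leaf and 4.94 FPKM in silique, CYP71B19 was at 37.4 FPKM in leaf and 4.32 FPKM in silique, and CYP71B20 was at 97.8 FPKM in leaf and 15.0 FPKM in silique. CYP71B23 was at 14.4 FPKM in leaf and 0.771 FPKM in silique, CYP71B3 was at 30.3 FPKM in leaf and 2.68 FPKM in silique, and CYP71B24 was at 42.5 FPKM in leaf and 1.30 FPKM in silique. The lowest leaf value in this run, that of CYP71B23, was just under the highest silique value, that of CYP71B20. The values of the run as a whole thus overlapped, while each locus was higher in leaf. The next runs held 4 loci each. On chromosome 5, from 15606771 to 15622620, AT5G38980 was at 1127 FPKM in leaf and 153 FPKM in silique, AT5G38990 at 58.1 FPKM in leaf and 11.5 FPKM in silique, AT5G39020 at 8.45 FPKM in leaf and 0.833 FPKM in silique and AT5G39030 at 27.8 FPKM in leaf and 0.734 FPKM in silique. On chromosome 1, from 27435614 to 27443856, TIR, of the domain shared by a class of immune receptors, was at 455 FPKM in leaf and 104 FPKM in silique and AT1G72910 was at 125 FPKM in leaf and 14.8 FPKM in silique.

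The longest silique run held 8 loci within 8.42 kb of chromosome 3, from 115320 to 123741. AT3G01323 was listed at 0 in leaf and at 101 FPKM in silique, AT3G01325 at 0.296 FPKM in leaf and 82.1 FPKM in silique, AT3G01327 listed at 0 in leaf and at 72.1 FPKM in silique and AT3G01329 at 0.538 FPKM in leaf and 67.6 FPKM in silique, and the median over the run was 59.2 FPKM in silique, with a median listed at 0 in leaf. A run of 7 on chromosome 4, from 11663324 to 11715167, had 2 loci named for cysteine-rich peptides, SCRL14, listed at 0 in leaf and at 233 FPKM in silique, and SCRL26, listed at 0 in leaf and at 71.1 FPKM in silique. A run of 6 further along chromosome 4, from 14418605 to 14434524, held 5 LCR genes, the highest of them LCR21, listed at 0 in leaf and at 209 FPKM in silique. Runs of 4 held the storage albumins SESA1 to SESA4 on chromosome 4, from 13607329 to 13614283, and SK7 to SK10 on chromosome 3, from 7693481 to 7700235.

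**Figure D5:**
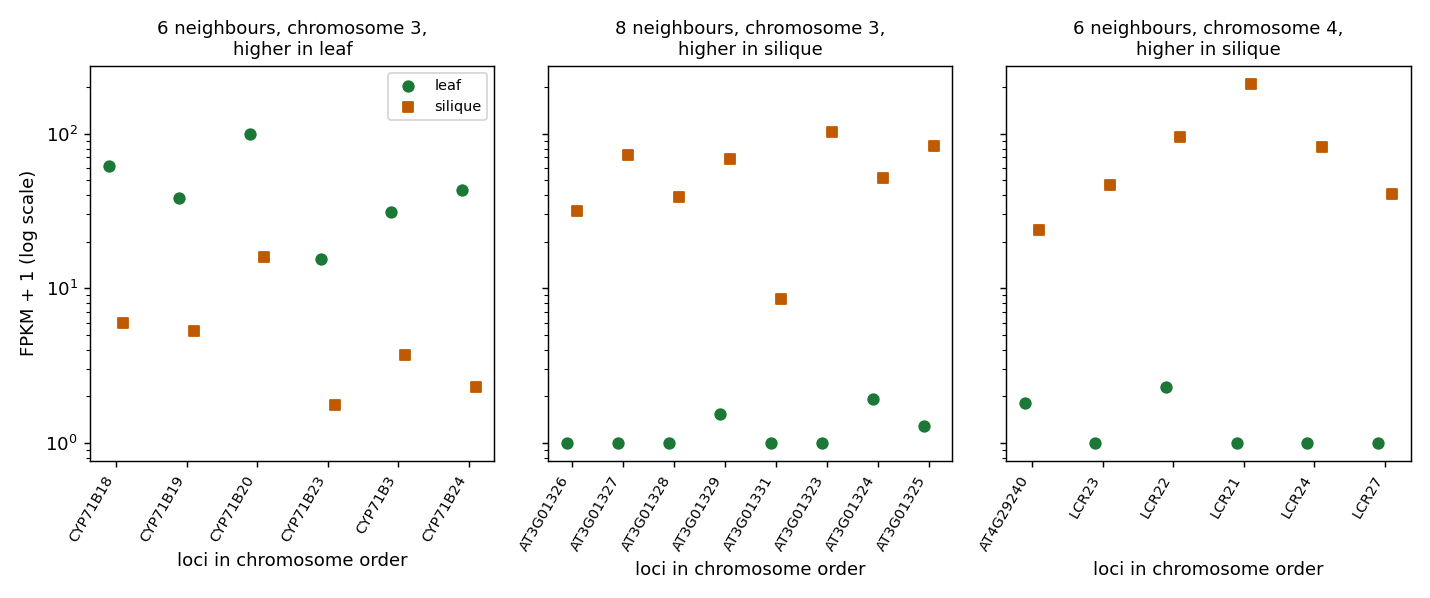
FPKM + 1 on a log scale for the members of 3 runs of neighbouring loci on the same side, in chromosome order; circles are leaf and squares silique. In the CYP71B run on chromosome 3 leaf lies above silique at all 6 loci. In the runs of 8 on chromosome 3 and 6 on chromosome 4 silique lies above leaf at every locus, with leaf mostly listed at 0.

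Where several identifiers shared a position, values could not be tied to 1 gene. Of 2270 shared positions with described loci, 14 had a leaf-high and a silique-high identifier. Loci alone at their position were leaf-high in 5.78% and silique-high in 13.4% of 13623, and loci at shared positions in 6.50% and 7.84% of 3828.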

How the data were processed

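The deposited FPKM of leaf, inflorescence and silique, 1 value per identifier and 1 library per organ, were used as given. Per the file headers they are FPKM. The submitters' processing notes name TopHat and TAIR10. The version, the counting tool and its use of strand, the annotation and the denominator were not given in the sources used here. Division by length and by library size means that narrow loci can take large values from few fragments and that abundant transcripts lower the rest. The depth is unknown, and low values showed no common step from which whole fragments could be recovered.

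Positions are those of the files with starts counted from 1. A locus took the name of a RefSeq gene of assembly TAIR10.1, used for names only, when it was alone at its position, held at least 50% of exactly 1 gene, was itself at least 50% covered by it, and no other locus held that gene. This named 26029 of 33857 loci. Neighbouring antisense genes and near-identical copies may be mixed in these values.

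Leaf and silique were compared by log2((leaf FPKM + 1)/(silique FPKM + 1)) among loci with at least 5 FPKM in either (Python 3.11.15, pandas 2.3.3, numpy 2.4.6, scipy 1.17.1). A difference was at least 4-fold. There was no test. The members, the 37 gene lists (586 entries, 481 at named loci, 405 described) and the rules were chosen with earlier results of these data known. Named genes were the 12 largest ratios a side from 20 FPKM up, the 5 highest loci a side, the 5 largest a side and the 5 nearest to a ratio of 1 over 500 FPKM, the longest runs and, per list, the 4 members furthest from a ratio of 1 and those 4-fold against its median. Members of the stomatal list are printed only in part. Genes named beyond the rule, among them GS2, SWEET11, SWEET12, LOX2, LOX4, TGG1, TGG2, FUL and DGAT1, and all families by symbol, were chosen after their values were seen. Promoter motifs and protein identity between copies were planned and were not made, since no sequences were used here. The counting step was tested on simulated data. Other settings tried were of the pseudocount, minimum, fold, scaling, width and shared positions, and, chosen after seeing the data, one without loci listed at 0.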

Additional observations from a re-analysis of the deposited data

How the results depend on the processing

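The count of loci that differed depended on the threshold, and more differed towards silique than towards leaf under every setting tried. With a pseudocount of 5, leaf was higher at 572 loci and silique at 1116, and with a minimum of 20 FPKM at 740 and 1164. At 2-fold the counts were 3151 and 3682, so that silique took 53.9% of the differences, and at 8-fold 375 and 1278, or 77.3%, against 67.2% at 4-fold. A pseudocount of 0.1, a minimum of 1 FPKM, no minimum, loci of at least 200 bp, loci alone at their position, and median-ratio scaling, which moves log2 ratios by 0.10, kept both counts within 1.5 times. With a pseudocount of 5 no locus of 5 to 10 FPKM can pass 4-fold, so both shares there were 0. That setting gave 1.72% leaf-high and 5.55% silique-high loci at 10 to 50 FPKM and 7.38% leaf-high loci at 50 to 500 FPKM. By chromosome, 1 to 5, it gave 3.25%, 3.74%, 3.34%, 3.26% and 2.90% leaf-high, and 6.41%, 7.14%, 5.97%, 5.41% and 6.83% silique-high. Of 109 medians and counts of lists, 4 moved under the scaling, 4 with members from 1 FPKM up, 10 with a pseudocount of 0.1 and 21 with one of 5, and no median of at least 1 in size changed sign. Under the scaling, leaf-high members numbered 5 in photorespiration, 1 in carbon fixation, 0 in starch and 0 among embryo maturation regulators. With a pseudocount of 5, silique-high members numbered 3 each in sucrose, wax and cutin, cell division and gibberellin, 2 each in endosperm and fruit patterning, and 0 each in abscisic acid, heat shock and stomata, and leaf-high members 3 in the indole glucosinolate list and 0 each in starch, stomata and embryo maturation. With a pseudocount of 0.1, the stomatal list had 2 leaf-high members and leaf polarity 1 silique-high member. No paired analysis was possible because each organ had 1 library. With 1 library per organ, differences between plants and between organs cannot be told apart, and with unknown depth no counting error could be given for low values.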

Other observations

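AT1G74929 (chr1:28143997-28144098) and AT2G01021 (chr2:6571-6672), both 102 bp wide, had the same value in leaf, 1595.03 FPKM. In silique AT1G74929 was listed at 0 and AT2G01021 was at 25172 FPKM, and in the inflorescence AT1G74929 was listed at 0 and AT2G01021 was at 7920 FPKM. They were the only 2 described loci with that leaf value, and AT1G74929 had the largest leaf ratio of the named loci. Whether the same fragments were counted at both was not tested.

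Chloroplast genes of under 200 bp did not share a direction. psbI was at 163.5 FPKM in leaf and petG at 101 FPKM in leaf, both listed at 0 in silique, whereas psbF was listed at 0 in leaf and was at 102 FPKM in silique. Of 29 described chloroplast loci, leaf was at least 4-fold higher at 3 and silique at 6, and of 14 mitochondrial loci 2 and 0.

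Cytochrome P450 genes, taken by the symbol CYP after their values were seen, divided almost evenly. Of 87 described, leaf was at least 4-fold higher at 22 and silique at 25. Of 10 described glutathione transferases of the GSTF class, 4 were higher in leaf and 5 in silique. In both families the share that differed was above the 18.1% of all described loci.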
